A study of Mus musculus with 36 samples.

Results

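The intercalated disc holds neighbouring cardiomyocytes together end to end, and 8 genes of its junctions were followed here in single cells of the mouse left ventricle. The members were named by symbol, and all 8 were found among the 20720 nuclear genes of the deposited UMI tables. They are Gja1 (chromosome 10), which encodes the gap junction channel protein connexin 43, the desmosomal genes Dsp (chromosome 13), Jup (chromosome 11), Pkp2 (chromosome 16), Dsg2 and Dsc2 (both on chromosome 18), the adherens junction cadherin gene Cdh2 (chromosome 18) and Tjp1 (chromosome 7), which encodes the scaffold protein ZO-1. Over the 3146 wells kept as cells, the UMIs (unique molecular identifiers, which count transcripts) ranged from 160 for Dsc2 to 5649 for Gja1, and the wells with at least 1 UMI from 118 to 1222.

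All mice were male C57BL/6 of 8 weeks per the labels (C57BL/6 J in the study's methods), and the left ventricular infarct region, or the matching region after sham surgery, was sorted as single cells into the wells of plates that all carried the same well barcodes. Sham surgery gave 4 plates at day 1 and 8 at day 14. Ischemia-reperfusion (IR, a 1-hour ligation of the left anterior descending artery) gave 9 plates at day 1, 7 at day 3 and 3 at day 14, and myocardial infarction (MI, a permanent ligation) gave 5 plates, all of day 3. No group carried a transgene or a drug per the labels. Which mouse gave which plate is not stated, so the p-values measure the spread between plates, which may be technical. Replicates 2 and 7 of day 14 sham held the same plate and were counted as 1 sample. A further 44 wells matched a well of another plate, 20 of them kept as cells and 2 of them cardiomyocytes. Leaving out those 2 changed no count of called members in cardiomyocytes, and the other classes were not refitted without theirs.

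Connexin 43 subunits dock between adjoining cells and pass ions and small molecules, which lets the action potential spread. In the desmosome, the cadherins desmoglein-2 (Dsg2) and desmocollin-2 (Dsc2) bind across the gap, plakoglobin (Jup) and plakophilin-2 (Pkp2) sit beneath them, and desmoplakin (Dsp) ties the plaque to desmin filaments. N-cadherin (Cdh2) does the same for actin at the adherens junction, and inherited defects of the desmosomal genes are a known cause of arrhythmogenic cardiomyopathy.

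The stretches just upstream of Gja1, Dsp and Jup are shown because the first 2 genes fell in MI cardiomyocytes (below) while Jup did not. Each is the 250 bases before the RefSeq transcript start, read 5′ to 3′ on the gene's strand, in GRCm38.p6: chr10:56377050-56377299 (plus strand), chr13:38151044-38151293 (plus strand) and chr11:100397791-100398040 (minus strand). Capitals mark exact matches, on either strand, to the AP-1 motif TGANTCA, the GC box GGGCGG or the TATA box TATAAA.
Gja1: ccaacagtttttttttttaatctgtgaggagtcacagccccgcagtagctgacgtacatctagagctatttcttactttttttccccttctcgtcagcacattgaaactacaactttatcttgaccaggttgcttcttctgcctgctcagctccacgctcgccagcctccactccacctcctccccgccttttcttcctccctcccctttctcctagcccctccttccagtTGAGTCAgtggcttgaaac
Dsp: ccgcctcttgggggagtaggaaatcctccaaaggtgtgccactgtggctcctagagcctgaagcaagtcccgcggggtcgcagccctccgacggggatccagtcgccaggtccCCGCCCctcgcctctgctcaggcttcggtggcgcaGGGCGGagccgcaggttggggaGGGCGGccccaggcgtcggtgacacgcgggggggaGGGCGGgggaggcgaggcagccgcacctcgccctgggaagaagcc
Jup: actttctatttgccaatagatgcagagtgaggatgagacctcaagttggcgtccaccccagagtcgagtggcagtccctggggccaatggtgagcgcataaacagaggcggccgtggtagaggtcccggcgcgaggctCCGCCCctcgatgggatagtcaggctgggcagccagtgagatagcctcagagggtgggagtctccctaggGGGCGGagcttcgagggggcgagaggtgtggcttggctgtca

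Gja1 held 1 AP-1 match, with its first base at -19 from the start, and no GC box. An E-box (CANNTG) at -23 overlapped it by its last bases, and a GATA motif (AGATAA) lay at -135 on the other strand. Dsp held 4 GC boxes, at -137, -102, -80 and -45, and Jup held 2, at -112 and -42. No TATA box and no MCAT motif (CATTCC) was matched in the 3 stretches. Of 27025 mouse promoter stretches of the same length, 6.87% held the AP-1 letters, 32.9% a GC box, 13% a TATA box, 10.3% the GATA letters, 12.6% the MCAT letters and 66% an E-box. GC content was 50% for Gja1, 72.4% for Dsp and 62.0% for Jup.

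Cardiomyocytes were 1186 of the 3146 wells. Sham hearts gave 243 of them at day 1 and 238 at day 14 (213 without the copied plate), reperfused hearts gave 32, 298 and 358 at the 3 times in order, and MI gave 17. They fell in 4 clusters found without the 8 members, and all 10 cardiomyocyte markers (Myh6, Tnnt2 and others) were seen in every group. In the cluster that held all MI wells, 4 of the 10 met the rule for naming markers (see the processing section), against 10, 10 and 6 in the others. Per MI well, Myh6 ran from 0 to 70 UMIs and Actc1, another of the 10, from 2 to 1241. The MI wells stood apart. Their median depth was 11405 UMIs against 1952 to 2456.5 in the other groups, and their median mitochondrial share was 5.08% against 75.6% to 83.6%. The ribosomal transcript Rn45s took 3.51% of their UMIs against 18.2% to 25.3%, and the 10 markers summed to 62148 CPM (UMIs scaled to 1000000 nuclear UMIs) against 79185 and 98789 in the sham groups and 48723 in IR day 1. Markers of the other classes had a median of 9.24 to 37.3 UMIs per 10000, and were highest in IR day 3, where the 8 fibroblast markers summed to 3269 CPM against 283 to 1073 CPM elsewhere. The MI plates carry their own protocol label, so library batch and MI cannot be told apart, and the part of depth, mitochondrial share and other-class RNA in the results was not tested.

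Gja1 was nearly absent from MI cardiomyocytes. Over the 9 sham plates with at least 5 cardiomyocytes its level was 364 CPM at the lowest, 407 CPM at the median and 657 CPM at the highest, with a mean of 448 ± 103 (SD, n = 9). Both MI plates of that size read 0 CPM, from 78951 and 42512 UMIs, and so lay below every sham plate. The 17 MI wells on all 5 plates held 6 Gja1 UMIs, in 4 wells. Pooled over wells, the level was 26.7 CPM in MI against 461 CPM in sham, 17.3-fold lower (95% counting interval 7.91 to 47.3). Of the 6 UMIs, 4 came from replicate 5, without which the level was 12.9 CPM and 35.9-fold lower (9.89 to 297), and without replicate 2 it was 41.1 CPM and 11.2-fold lower (5.13 to 30.7). Such intervals, here and below, are exact and cover counting error only.

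Dsp, Cdh2 and Dsg2 were also lower after MI. Dsp read 329 and 235 CPM on the MI plates against 182, 759 and 1057 CPM (lowest, median, highest) in sham. The low value, from a day 14 plate of 7 cells and 2 Dsp UMIs, was the only sham plate under the MI plates. Pooled, Dsp was 258 CPM against 825 CPM, 3.20-fold lower (2.46 to 4.24). Cdh2 read 139 and 118 CPM in MI against 273, 421 and 567 CPM in sham, with no overlap, and was 4.96-fold lower when pooled (3.22 to 8.06).

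Dsg2 read 0 CPM on both MI plates against 75.7, 108 and 171 CPM in sham, and 2 UMIs were seen in all 17 MI wells, a pooled level 14.4-fold lower (3.94 to 120), which became 9.35-fold without MI replicate 2 and 26.1-fold without replicate 4. Its partner cadherin Dsc2 was rare throughout, at 11.01, 35.0 and 91.1 CPM in sham. With 0 Dsc2 UMIs in MI, the floor of 3 UMIs over the pooled group put it at least 2.45-fold lower, while the interval that also counts the error of the 50 sham UMIs, drawn in the plot of pooled ratios, ended at 1.92-fold lower.

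The armadillo proteins of the plaque did not follow. Jup read 139 and 165 CPM in MI, above all 9 sham plates (0, 60.6 and 120 CPM), and Pkp2 read 165 and 282.27 CPM against 98.6, 135 and 182 CPM, with overlap. Pooled ratios of MI to sham were 3.06 for Jup (2.14 to 4.32) and 2.15 for Pkp2 (1.60 to 2.87). These CPM carry no correction for library composition, under TMM scaling the MI plates no longer lay above all sham plates for Jup (120 and 119 against up to 127), and the scaled fit called neither gene (below). Tjp1 had 2 UMIs in MI, a ratio of 0.412 (0.048 to 1.61), both from 1 well of replicate 3, without which it had 0.

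**Figure D1:**
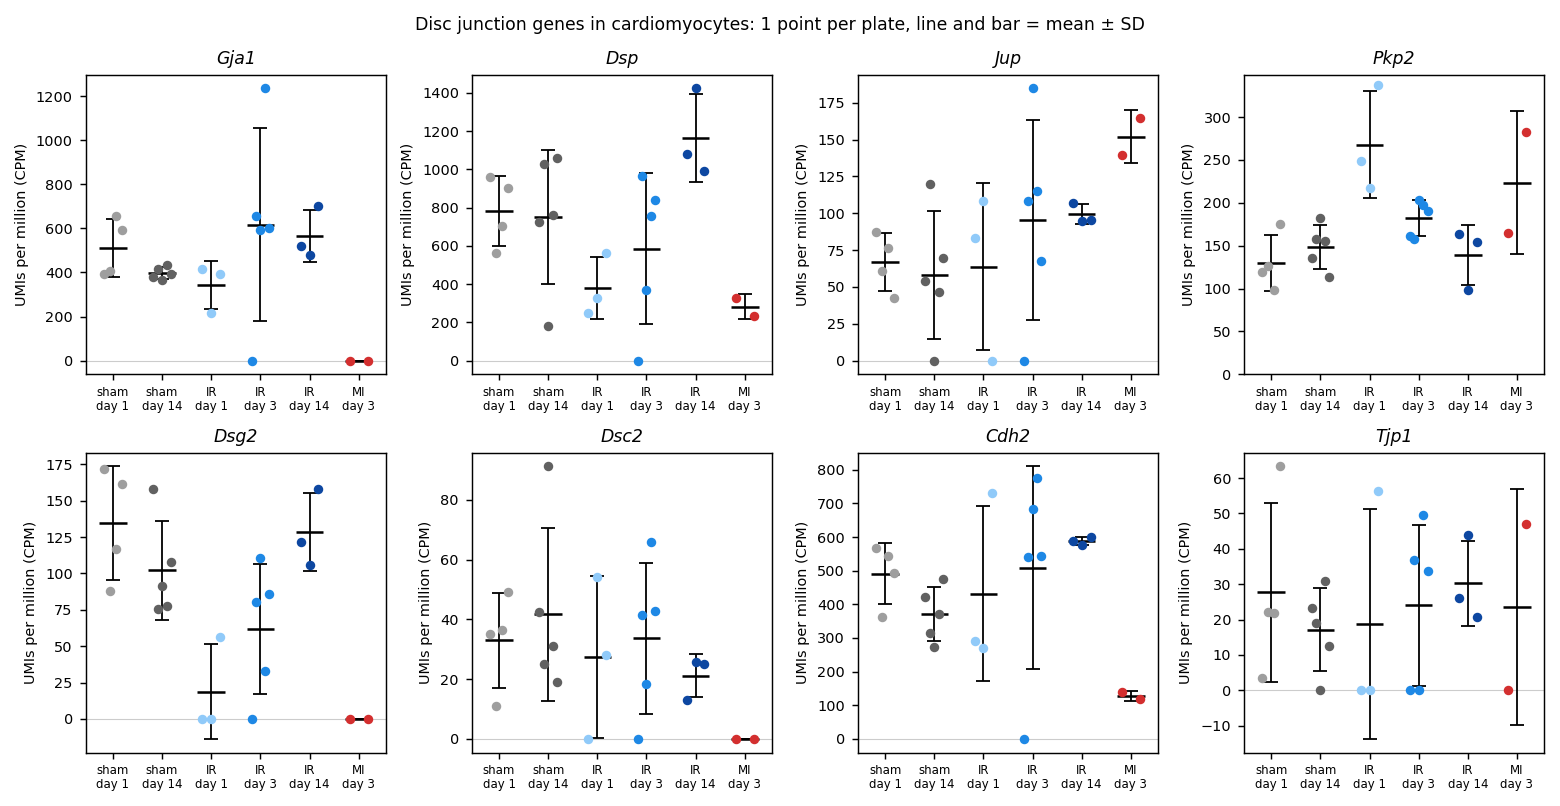
Level of each junction gene in cardiomyocytes (CPM, linear axes that differ between panels) by group, 1 point per plate with at least 5 cardiomyocytes, horizontal line and bar mean ± SD. Both MI plates sit at 0 for Gja1, Dsg2 and Dsc2, below the sham plates for Cdh2, and above them for Jup (not so after TMM scaling), and the IR day 3 plate at 0 for most genes is replicate 3 with 5 cells.

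UMIs summed per plate were tested with edgeR's quasi-likelihood test (TMM scaling) with Benjamini-Hochberg adjustment over the 4279 genes that passed the filter on low counts. Of the 8 members, 6 passed it. Dsc2 (135 UMIs in 1161 cardiomyocytes) and Tjp1 (123 UMIs) did not. In MI against both sham groups, 4 members fell and 0 rose, where 35.8% of all tested genes were called, 13.8% higher and 22.1% lower. The log2 fold changes were -9.63 ± 1.3 (SE) for Gja1 (adjusted p 9.5e-09), -7.77 ± 1.46 for Dsg2 (1.6e-05), -2.48 ± 0.55 for Cdh2 (2.5e-04) and -2.20 ± 0.54 for Dsp (8.7e-04). The SE, here and below, is derived as the size of the fold change over the square root of the F statistic. The 95% intervals of fold changes follow from that SE. With 0 UMIs on both MI plates, the fitted values of Gja1 and Dsg2 and their SE depend on the prior count, so the pooled folds above give their size. Jup (0.36 ± 0.50, adjusted p 0.598, 95% interval -0.62 to 1.33) and Pkp2 (-0.07 ± 0.44, 0.909, -0.94 to 0.79) were not called, and Pkp2 turned to 0.19 (0.732) under the RLE scaling described next. With plates of at least 1 cell, which takes in all 5 MI plates, Jup was called higher (1.09 ± 0.38, adjusted p 0.0102), Gja1 (-4.55 ± 0.65, 5.3e-08), Cdh2 (-2.77 ± 0.52) and Dsp (-2.32 ± 0.48) were called lower, and Dsg2 did not pass the filter.

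The median log2 fold change was -2.34 over the 6 members and -0.26 over all tested genes, and the former is the same with Gja1 and Dsg2 at their pooled folds, which also lie below Cdh2. With RLE in place of TMM scaling the median of all genes was 0.01, higher genes made up 50.2% and not 38.4% of those called, and the same 4 members were called. Without MI replicate 3 the Dsp call was lost, in a fit with 1 MI plate whose spread came from the other groups.

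MI was next set against IR day 3, the same day with the ligature released. The 5 IR day 3 plates read 0, 656, 592, 1236 and 600 CPM for Gja1, where the 0 came from replicate 3 with 5 cells and 6209 UMIs, and the other 4 lay above both MI plates. Cdh2 read 0 CPM on that plate and 541 to 775 CPM on the other 4. In this comparison the same 4 members fell, with 24% of all genes called, 7.6% higher and 16.4% lower. Log2 fold changes were -9.94 ± 1.29 for Gja1 (edgeR adjusted p 2.6e-08), -6.92 ± 1.68 for Dsg2 (0.00137), -2.57 ± 0.57 for Cdh2 (4.8e-04) and -1.72 ± 0.55 for Dsp (0.0161). Pooled levels were 24.8-fold lower for Gja1 (11.3 to 67.7), 9.01-fold for Dsg2 (2.43 to 75.4), 5.94-fold for Cdh2 (3.86 to 9.66) and 3.46-fold for Dsp (2.65 to 4.58), and Dsc2 was at least 3.12-fold lower at the floor, with the counting interval ending at 2.45-fold. Without MI replicate 5 Gja1 was 51.4-fold lower and without replicate 2 it was 16.1-fold, and Dsg2 was 5.85-fold lower without replicate 2 and 16.3-fold without replicate 4. The median log2 fold change was -2.14 over the members and -0.28 over all genes. Jup (0.03 ± 0.52, adjusted p 0.971) and Pkp2 (-0.26 ± 0.47, 0.72) were not called. Without MI replicate 2 only Gja1 stayed past the threshold, and without MI replicate 3 it was Gja1 and Dsg2. These fits held 1 MI plate each, so their spread came from the other groups. The Dsp call was also lost without IR day 3 replicate 4 (-1.28, edgeR adjusted p 0.116) and with no filter on low counts (-1.86, 0.0599). Under a block for replicate number the Cdh2 and Dsp calls were both lost, though these numbers did not pair plates (see the closing section).

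All 17 MI cardiomyocytes fell in a single cluster led by Sprr1a, Nmrk2 and Nppa, which also held 24 of 32, 173 of 298 and 32 of 358 wells of the reperfused hearts in order of time, and 12 and 4 sham wells (days 1 and 14). Within that cluster alone, a comparison added after seeing the data, the 4 members were again lower in MI than in IR day 3, where 28.9% of 2371 genes were called, 10.1% higher and 18.8% lower. The log2 fold changes were -8.66 ± 1.16 for Gja1 (edgeR adjusted p 2.5e-11), -2.65 ± 0.57 for Cdh2 (6.0e-05), -2.05 ± 0.52 for Dsp (7.3e-04) and -5.29 ± 1.94 for Dsg2 (0.0263). Jup (-0.19 ± 0.62) and Pkp2 (-0.06 ± 0.56) were not called there.

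**Figure D2:**
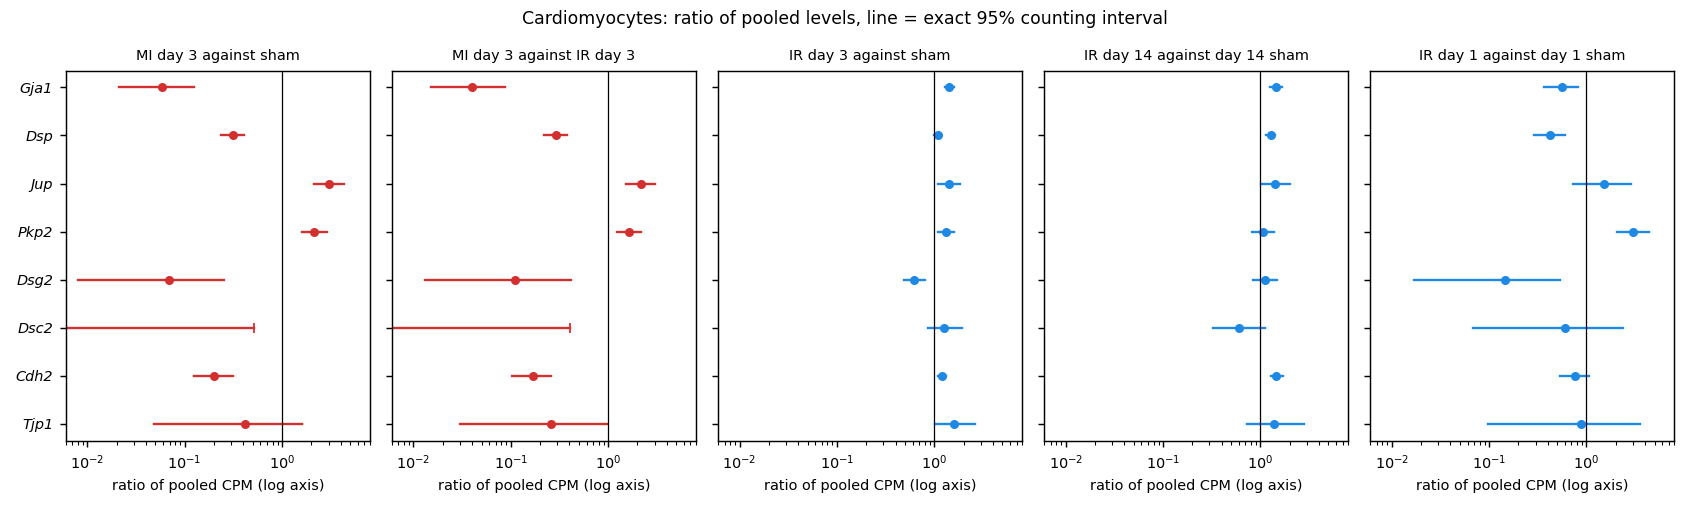
Ratio of pooled levels in cardiomyocytes (log axis, 1 = equal) for 5 comparisons, with the exact 95% counting interval, before composition scaling; the Dsc2 bars in the MI panels end at the upper bound because MI held 0 UMIs. In both MI panels Gja1, Dsp, Dsg2 and Cdh2 lie left of 1 and Jup and Pkp2 right of it, while the intervals of the IR day 3 and day 14 panels lie within a few-fold of 1.

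At 1 day of IR, Dsg2 and Dsp were lower under the main scaling. Dsg2 read 0, 0 and 56.3 CPM on the 3 IR plates with enough cardiomyocytes, all below the 4 day 1 sham plates (171, 88.1, 117 and 162 CPM), and 2 UMIs were seen in 32 wells. Dsp read 248.82, 326 and 563 CPM against 959, 562, 701 and 900 CPM, so the highest IR plate met the lowest sham plate. Pooled levels were 6.91-fold lower for Dsg2 (1.87 to 57.7), 2.36-fold for Dsp (1.67 to 3.43) and 1.79-fold for Gja1 (1.23 to 2.70). Pkp2 went the other way, at 248.82, 217 and 338 CPM, all above the sham plates (119, 127, 98.6 and 176 CPM), with a pooled ratio of 3.03 (2.03 to 4.41). These CPM are unscaled: over the 3 plates alone the ratio was 2.28 (1.38 to 3.64), and after TMM scaling the plates (239, 161 and 359) overlapped the sham plates (132 to 259). Without IR replicate 3 Dsp was 3.73-fold lower and Dsg2 had 0 UMIs.

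In the fit, 2 members were lower and 0 higher, with 12.1% of all genes called, 3.39% higher and 8.74% lower, and the median log2 fold change was -1.05 over the members. Dsg2 changed by -2.96 ± 0.86 on the log2 scale (edgeR adjusted p 0.0149) and Dsp by -1.57 ± 0.51 (0.0292). Gja1 (-1.11 ± 0.48, 0.112), Cdh2 (-0.67 ± 0.45, 0.342), Jup (-0.99 ± 0.77, 0.415) and Pkp2 (0.53 ± 0.46, 0.472) were not called. With plates of at least 1 cell, which takes in all 9 IR plates, Gja1 was called lower (-1.52 ± 0.49, edgeR adjusted p 0.0247) along with Dsp (-1.94 ± 0.51, 0.00465), and Dsg2 did not pass the filter. With classes set by marker sums, Gja1 (-1.44 ± 0.43, 0.00858) and Cdh2 (-1.38 ± 0.42, 0.0096) were called lower beside Dsg2 and Dsp.

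This pair of calls rested on the scaling and on the wells and plates used. Over all tested genes the median change was -0.58 (log2) under TMM and 0.07 under RLE scaling, and higher genes made up 27.9% and 71.2% of those called. Under RLE 0 members were called, with 3 of 6 at an unadjusted p under 0.05, where 1051 of all 4279 genes were. DESeq2 also called 0 members, with 3 at that p, where 989 of the genes were. Under RLE Dsg2 stood at -2.33 (adjusted p 0.0901), Dsp at -0.93 (0.196) and Pkp2 at 1.18 (0.0741). Without IR replicate 1 or 2, 0 members were called, and without day 1 sham replicate 1 or 4 it was 1. Both calls were also lost without wells over 100 other-class marker UMIs per 10000 and within the cluster that held the MI wells. In that cluster, pooled Dsp was 347 CPM in IR day 1 (24 wells, 234 to 496) and 366 CPM in day 1 sham (12 wells, 189 to 639). Pooled Dsg2 was 23.2 CPM (2 UMIs) and 152 CPM (5 UMIs) there. The neutrophil markers summed to 658 CPM in IR day 1 cardiomyocytes against 206 CPM in day 1 sham, and their part in the result was not tested.

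At 3 and 14 days of IR no member was called in cardiomyocytes. In IR day 3 against sham 6.22% of genes were called, 4.18% higher and 2.03% lower, and Dsg2 had the smallest p (-0.85 ± 0.34 on the log2 scale, unadjusted 0.0133, edgeR adjusted p 0.128, 95% interval -1.50 to -0.19). Its plates read 0, 80.5, 111, 33.0 and 85.8 CPM. The log2 fold changes of the others were 0.31 ± 0.29 for Gja1, -0.47 ± 0.32 for Dsp, 0.32 ± 0.33 for Jup, 0.19 ± 0.29 for Pkp2 and 0.09 ± 0.29 for Cdh2. DESeq2 called 0 members there as well, with 0 at an unadjusted p under 0.05 against 1 for edgeR. Of all 4279 genes, 692 were under it by DESeq2 and 799 by edgeR. The share of higher genes among those called was 67.3% under TMM and 78.1% under RLE scaling.

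In IR day 14 against day 14 sham, 0.21% of genes (0.187% higher, 0.0234% lower) and 0 members were called. At an unadjusted p under 0.05, edgeR and DESeq2 each had 0 members, and 206 and 127 of all 4279 genes. Gja1 read 520, 478 and 701 CPM on the 3 IR day 14 plates and 379, 416, 364, 434 and 392 CPM on the day 14 sham plates, without overlap. After TMM scaling they did overlap, the lowest IR plate reading 627 and the highest sham plate 633. Its log2 fold change of 0.53 ± 0.37 had an adjusted p of 0.998 and a 95% interval of -0.19 to 1.25. For Cdh2 the plates stayed apart on both scales, at 589, 577 and 599 CPM against 421, 315, 273, 372 and 475 CPM (0.60 ± 0.37, adjusted p 0.998). Dsp stood at 0.54 ± 0.39, Jup at 0.50 ± 0.39, Dsg2 at 0.22 ± 0.37 and Pkp2 at 0.02 ± 0.35. The difference of the IR effects at days 1 and 14 was called for 2 members, both lower at day 1 (Dsg2 and Dsp), where 6.05% of genes were called, 0.935% higher and 5.12% lower, and neither was called under RLE scaling (Dsg2 -2.56, edgeR adjusted p 0.135, and Dsp -1.45, 0.149). The main values of this difference were -3.18 ± 0.96 for Dsg2 and -2.11 ± 0.64 for Dsp (edgeR adjusted p 0.0329 for each), and Gja1 (-1.64 ± 0.60, 0.0816), Cdh2 (-1.27 ± 0.58, 0.175), Jup (-1.49 ± 0.86, 0.294) and Pkp2 (0.51 ± 0.58, 0.642) were not called.

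IR day 14 against IR day 3 (3.69% of genes called, 1.05% higher and 2.64% lower) and day 14 against day 1 sham (0.678% called, 0.0467% higher and 0.631% lower) gave 0 members each. By edgeR, 2 members in the former (Dsp 0.96 ± 0.39 and Dsg2 0.85 ± 0.38) and 0 in the latter had an unadjusted p under 0.05, and by DESeq2 it was 1 and 0. Over all 4279 genes it was 592 and 425 by edgeR and 475 and 363 by DESeq2. The other members stood at -0.04 for Gja1, 0.12 for Jup, -0.18 for Pkp2 and 0.27 for Cdh2 in the former. In the latter the 6 members stood at -0.52 for Gja1, -0.12 for Dsp, -0.13 for Jup, -0.03 for Pkp2, -0.43 for Dsg2 and -0.49 for Cdh2. Higher genes made up 28.5% of those called in the former under TMM and 18.3% under RLE scaling. Over these 4 comparisons the members' median log2 fold change was 0.14, 0.52, 0.19 and -0.28, in the order given, against -0.02, 0.04, 0.05 and -0.06 over all genes.

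After thinning each cardiomyocyte well to 1000 UMIs, 1 of 17 MI wells kept a Gja1 UMI (5.88%, exact binomial interval 0.15 to 28.7). In the other groups the share was 25% to 33.9%. For Dsp it was 29.4% in MI (10.3 to 56.0), 25% in IR day 1 and 47.9% to 55.6% elsewhere. In macrophages, which form no intercalated disc, the thinned shares reached at most 4.76% for either gene, at median depths of 3530 to 22838 UMIs against 1952 to 11405 UMIs in the cardiomyocytes. Without thinning, 23.5% of MI and 31.2% to 60.7% of other cardiomyocyte wells held Gja1.

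The other genes of the disc were followed as a list of 28, of which 22 were tested in cardiomyocytes. In MI against sham 8 fell and 0 rose under TMM, 5 and 1 under RLE scaling, 5 and 2 by DESeq2, and the median log2 fold change was -1.16 against -0.26 over all genes. Of all tested genes, 22.1% were called lower there and 13.8% higher. Some partners were higher in MI by unscaled pooled CPM, such as Xirp2 (3.44-fold, 3.11 to 3.79) and Des (2.61-fold, 2.42 to 2.81). The scaled fit did not call these. Those that fell included Kcnj2 (inward rectifier potassium channel, -6.73 ± 1.66, edgeR adjusted p 8.8e-04) and Ank2 (the anchor ankyrin-B, -6.64 ± 1.70, 0.00133). With 0 UMIs in MI the floor put Kcnj2 at least 4.21-fold and Ank2 at least 4.31-fold lower, with counting intervals ending at 3.35-fold and 3.43-fold. Of the adherens plaque genes 3 of 5 tested fell, of the actin anchoring genes 2 of 6 (Actn2, the Z-disc protein alpha-actinin-2, -1.71 ± 0.48, 0.00338), and of the desmosome-linked genes and the gap and tight junction partners 0 of 3 each.

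In MI against IR day 3 (16.4% of all genes called lower), 7 of the 22 fell and 0 rose, among them Ank2 (-6.80 ± 1.70, edgeR adjusted p 0.00188), Vcl (vinculin, -3.98 ± 1.02, 0.00249) and Flnc (filamin C, -2.60 ± 0.67, 0.0027). At day 1 of IR (3.39% of all genes called higher, 8.74% lower) the list split. The actin cross-linker genes Flnc (2.84 ± 0.38, adjusted p 4.2e-08) and Xirp2 (2.99 ± 0.44, 6.3e-07) rose while Lmo7 (-2.55 ± 0.58, 0.00141) and Actn2 (-1.52 ± 0.45, 0.0172) fell, and under RLE scaling 6 rose and 1 fell. In the other 4 cardiomyocyte comparisons 0 of the 22 were called by edgeR, with 2, 2, 3 and 2 at an unadjusted p under 0.05 (IR day 3 against sham, IR day 14 against day 14 sham, IR day 14 against IR day 3, and the sham groups). Of all 4279 genes, 799, 206, 592 and 425 were under it. RLE scaling and DESeq2 each called 1 higher in IR day 3 against sham and 0 in the others. There DESeq2 had 2, 4 and 2 at an unadjusted p under 0.05, and 127, 475 and 363 of all genes.

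Among the 4 cardiomyocyte clusters the members differed from each other in where they were high, given here as a description since the clusters were made from the same wells and genes that vary with the members. Gja1 ran from 245 CPM (213 to 280) in the cluster led by Myh14 and Myom2, where Dsp was also among the 10 leading genes, to 841 CPM (779 to 907) in that led by Lgals4 and D830015G02Rik. Dsp ran the other way, at 1070 and 609 CPM in these clusters. The cluster of the MI wells had the highest Jup (154 CPM, 132 to 179, against 59.2 to 89.9) and the lowest Dsg2 (42.9 CPM, 31.5 to 57.0, against 81.3 to 177.25). These levels pool groups that differ in their share of each cluster. Within day 1 sham that cluster was not the lowest in Dsg2, at 152 CPM (5 UMIs) against 74.4, 140 and 190 CPM. Median depth also differed, from 1608 to 6006 UMIs per well.

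Outside cardiomyocytes, Gja1, Jup and Tjp1 were seen where cardiomyocyte markers were low, and Dsp was at or near 0 there. Jup was 239 to 402 CPM and Tjp1 125 to 239 CPM in endothelial cells (406 wells), where both serve junctions between endothelial cells. Gja1 was 237 to 389 CPM there. In fibroblasts (297 wells) Gja1 was 52.0 and 55.9 CPM in the sham groups (12 UMIs in all), 241 CPM (211 to 275) in IR day 1, 157 CPM (124 to 196) in IR day 3, 55.3 CPM in IR day 14 and 170 CPM (161 to 180) in MI. On plates with at least 5 fibroblasts it read 31.7, 74.4, 0 and 58.8 CPM in sham, 133 to 361 CPM on the 5 IR day 1 plates and 96.1 to 199 CPM on the 5 MI plates, so sham overlapped neither. Fibroblast Cdh2 was 37.2 and 44.7 CPM in sham, 62.4 CPM in IR day 1 (a pooled ratio to day 1 sham of 1.68, 0.681 to 5.36), 135 CPM in IR day 3, 49.1 CPM in IR day 14 and 158 CPM (149 to 167) in MI. All sham fibroblasts belonged to a cluster led by Pi16 and Htra3, while 44 of 54 in IR day 1 and 129 of 132 in MI belonged to one led by Cxcl5 and Timp1, and no test across these groups was fitted. Macrophages held all members at 56.5 CPM or less in the groups with more than 20 wells.

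**Figure D3:**
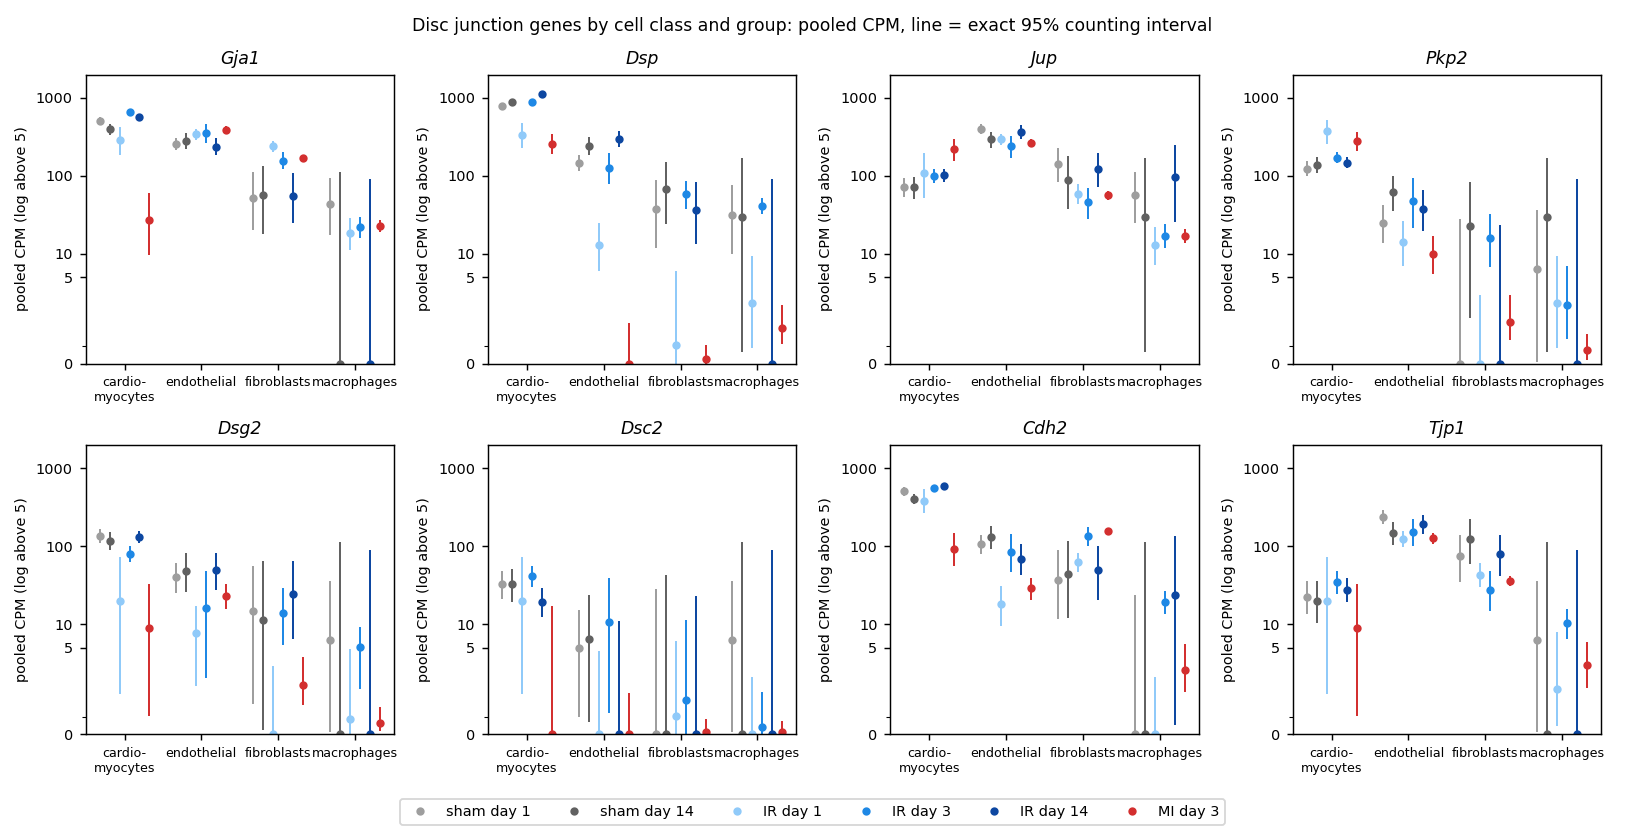
Pooled level of each junction gene (CPM, log axis above 5 and linear below) in 4 cell classes, coloured by group, with the exact 95% counting interval. Jup and Tjp1 stand highest in endothelial cells, Gja1 is present in cardiomyocytes, endothelial cells and fibroblasts, and Dsp in endothelial cells and fibroblasts has its lowest values in the MI and IR day 1 groups.

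Dsp in the other classes, and Cdh2 in endothelial cells other than those of MI, moved with the cardiomyocyte markers. For each 1000 UMIs of the 10 markers there were 10.1 Dsp UMIs in cardiomyocytes, 8.97 in endothelial cells, 8.73 in fibroblasts and 12.01 in macrophages. In MI cardiomyocytes alone the Dsp ratio was 4.15. For Cdh2 the ratio was 5.72 in cardiomyocytes, 6.11 in endothelial cells, 223 in fibroblasts and 7.38 in macrophages, and for Gja1 it was 5.93, 38.0, 271 and 25.3. The endothelial Cdh2 ratio was 165 in MI and 2.83 to 7.42 in the other groups. In endothelial cells the markers summed to 15560 and 32947 CPM in sham, 2433 CPM in IR day 1 and 174 CPM in MI, all 10 markers being seen in each group.

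Against that level, endothelial Dsp read 104 to 309 CPM on the 8 sham plates, 0 on 5 of the 8 IR day 1 plates with 4.56, 16.5 and 68.7 CPM on the others, and 0 on all 5 MI plates (0 UMIs in 58 wells). In IR day 1 against day 1 sham, 2 of the 5 members that passed the filter fell, Dsp by -3.42 ± 0.54 (edgeR adjusted p 4.9e-05) and Cdh2 by -2.35 ± 0.67 (0.0128, lost without day 1 sham replicate 4), where 17.9% of 3645 genes were called, 8.45% higher and 9.47% lower. Tjp1, at -0.97 ± 0.36, had an adjusted p of 0.0555 and was called under RLE scaling (0.0431), DESeq2 (0.0417) and at least 10 cells per plate (0.0194), and without IR day 1 replicate 1, its highest IR plate (-1.30, 0.00519). In MI against sham, Dsp (-7.79 ± 0.71, 1.0e-09) and Cdh2 (-1.87 ± 0.57, 0.0106, lost without day 14 sham replicate 1) fell, where 36% of genes were called, 19.4% higher and 16.6% lower. Gja1 (0.63 ± 0.38, 0.208), Jup (-0.35 ± 0.29, 0.367) and Tjp1 (-0.53 ± 0.34, 0.22) were not called, though Tjp1 was with day 1 sham alone as control (-1.0, 0.0411). At IR day 1, Gja1 (0.55 ± 0.43, 0.413) and Jup (-0.45 ± 0.31, 0.331) were not called either.

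Of the endothelial wells, 51 of 109 in day 1 sham and 49 of 72 in day 14 sham held more than 100 cardiomyocyte marker UMIs per 10000, against 5 of 78 in IR day 1 and 0 of 58 in MI. Without such wells, a comparison added after seeing the data, Dsp was at -2.66 ± 0.79 (adjusted p 0.0429) in IR day 1 and -7.06 ± 1.04 (3.3e-05) in MI, and Cdh2 no longer passed the filter on low counts. Wells under that limit still held marker UMIs, and their part in the Dsp result was not tested. Endothelial wells were mostly of the cluster led by Slc26a10 and Cd300lg in sham and of that led by Plvap and Igf2 in IR day 1 and MI.

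In fibroblasts of MI against IR day 3, Dsp was the only member called (-6.68 ± 0.88, edgeR adjusted p 1.2e-05), where 8.78% of 5947 genes were called, 3.3% higher and 5.48% lower. The 2 groups lay mostly in different clusters, since 45 of the 58 IR day 3 fibroblasts belonged to the cluster led by Pi16 and Htra3 and 129 of the 132 MI fibroblasts to that led by Cxcl5 and Timp1. It read 20.4, 60.6, 0 and 97.9 CPM on the IR plates and 0 to 0.59 CPM on the 5 MI plates. The cardiomyocyte markers summed to 5803 CPM in the former and 119 CPM in the latter, and without marker-rich wells Dsp did not pass the filter. Gja1 (-0.25 ± 0.38), Cdh2 (0.03 ± 0.35), Jup (0.40 ± 0.42) and Tjp1 (0.27 ± 0.46) were not called. In macrophages no member passed the filter for this comparison, in which 8.53% of 5112 genes were called, 4.46% higher and 4.07% lower.

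**Figure D4:**
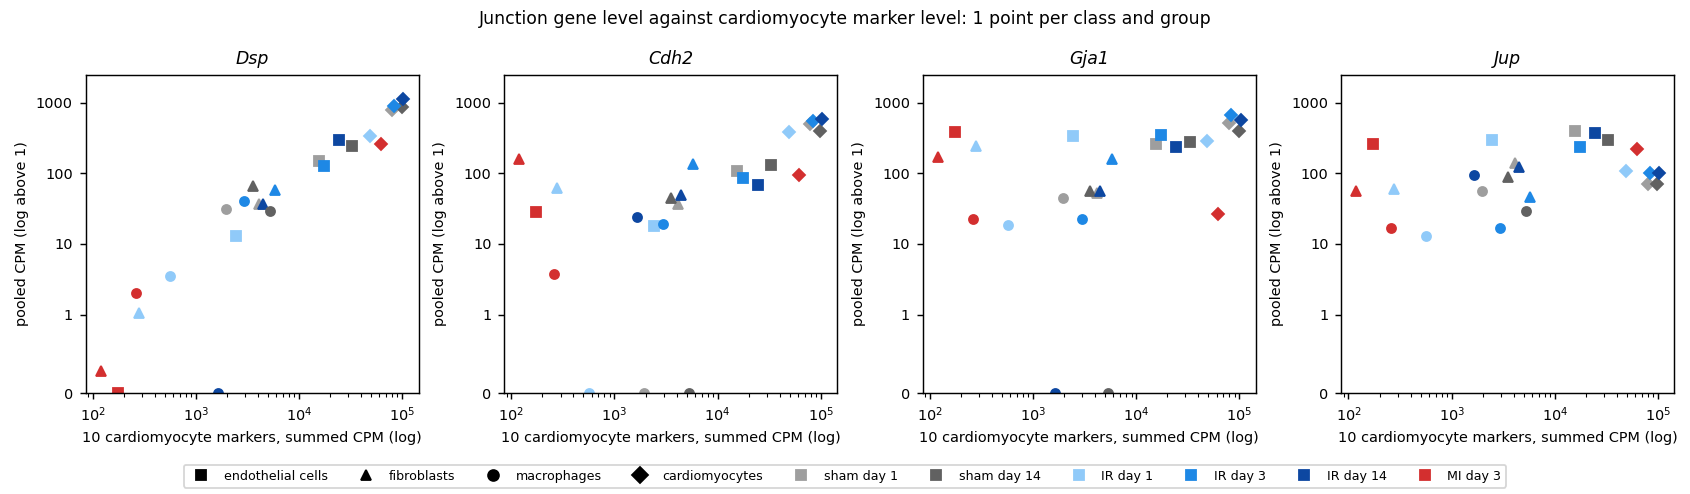
Pooled level of 4 junction genes against the summed level of 10 cardiomyocyte markers (both in CPM, log axes, with the vertical axis linear below 1), 1 point per class and group. Dsp runs along with the markers from fibroblasts of MI at 119 CPM of markers to the cardiomyocytes, while Gja1 in endothelial cells and fibroblasts of MI stays high where the markers are low.

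The genes most like each member were ranked by Pearson's r of log2(CPM + 10) over 26 pools of class by group and 8880 genes, a description with no test, since pools of 1 group share plates and depth. For Gja1 they were Cd151 (r = 0.930), Smtn (0.899) and Tacc2 (0.872), and for Dsp they were Fndc5 (0.982), Ckmt2 (0.982) and Pfkm (0.975). Pkp2 was most like Des (0.952), which encodes desmin, Dsg2 most like Slc2a4 (0.963), Cdh2 most like Trabd2b (0.922), Jup most like Mapk12 (0.857) and Tjp1 most like Cdc42ep1 (0.944). Dsc2 was under the limit of 50 CPM. Between members, r was 0.870 for Dsp and Dsg2, 0.863 for Dsp and Pkp2 and 0.774 for Jup and Tjp1, and 0.042 for Pkp2 and Tjp1.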

How the data were processed

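Single cells were measured with SORT-seq. Per the labels and the methods, the authors mapped reads to GRCm38/mm10 with BWA (version and annotation not given in the sources used here) and deposited raw UMI counts per gene and well. UMIs have 6 bases, and values reached 4096, so saturated genes are understated. The tables held 36 plates and 13824 wells, with 176614 to 5551870 UMIs per plate, and 0 columns of other samples.

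Mitochondrial and spike-in counts were left out, and wells with at least 1000 UMIs were kept. Wells were clustered with scanpy 1.11.5 and leidenalg 0.10.2 (2000 variable genes, 30 components, resolution 1, seed 1) without the members and the 28 partner genes. A cluster was named from a marker list when at least 3 of its markers reached 0.5 UMIs per 10000 and were 2 times higher than in other wells. The list also needed at least 2 times as many such markers as the next list. A cluster over 3 times shallower than its plates, with no marker of its list among its 10 leading genes, stayed unnamed. One such cluster held 188 wells (174 of MI) and met the rule with 4 fibroblast markers. In all, 14 of 18 clusters were named, and 444 wells stayed unnamed. Names stand for cells like those classes. Doublets were not called. Of the cardiomyocytes, 764 held more than 10 marker UMIs of other classes per 10000. UMIs were summed per plate and class (at least 5 cells) and fitted over all 6 groups with edgeR 4.0.16 in R 4.3.3 (filterByExpr, TMM, quasi-likelihood F test, Benjamini-Hochberg, threshold 0.05), with DESeq2 1.42.0 as an alternative, and the script was tested on simulated data. Since a day 3 sham was not analysed here, the controls for day 3 were both sham groups, weighted equally. The plates outnumber the mice that the study gives for MI, so some share a mouse and p-values may be too small. Replicate numbers did not pair plates (see the closing section). Promoter stretches are from RefSeq, which held no entry used here for Pkp2.

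All members that passed the filter are named in every comparison between groups, and partner genes by at most 4 per comparison with the lowest adjusted p, of which 1 is not reported here. The members and lists were chosen with earlier results of these data known.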

Additional observations from a re-analysis of the deposited data

Results flagged for a closer look

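The effect of IR against sham differed between day 1 and day 14 in cardiomyocytes for Dsg2 (difference of log2 fold changes -3.18 ± 0.96, edgeR interaction, adjusted p 0.033) and Dsp (-2.11 ± 0.64, 0.033), where 259 of 4279 genes were called, 40 higher and 219 lower. Under RLE scaling the differences were -2.56 (0.14) and -1.45 (0.15), and 77 genes were called higher and 40 lower.

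Of 78 sets of plates examined for a single plate far from the rest, 12 were marked, where chance marks about 1 in 20. All were high plates outside cardiomyocytes. In endothelial cells, Jup read 569 CPM on day 1 sham replicate 2 against 373 CPM on the next plate, Dsg2 94.9 CPM on day 14 sham replicate 1 against 11, Dsp 68.7 CPM on IR day 1 replicate 3 against 16.5, Tjp1 340.4 CPM on IR day 1 replicate 1 against 145, and MI replicate 5 with 5 cells read 374.6 CPM for Dsg2 against 24.0 and 49.9 CPM for Pkp2 against 10.4. Dsg2 there rested on 15 UMIs and Pkp2 on 2. In fibroblasts, Jup read 86.8 CPM on MI replicate 4 against 57.9. In macrophages, Gja1 read 65.6 CPM on IR day 1 replicate 5 against 22.9. Jup there read 57.3 CPM on IR day 1 replicate 6 against 20.8, and Dsg2 48.8 CPM on IR day 3 replicate 5 against 5.4, on 2 UMIs each. Macrophages of MI replicate 5 read 11.5 CPM for Dsp against 2.2 and 48.2 CPM for Jup against 17.0.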

How the results depend on the processing

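In cardiomyocytes, MI against sham kept 4 or 5 called members under all 12 other settings (with at least 1 cell per plate 3 lower and Jup higher) and 3 to 5 when single plates were left out. MI against IR day 3 kept 3 to 5 under 10 of 11 settings, with 2 under the replicate block (Cdh2 and Dsp lost) and 1 to 5 without single plates. IR day 1 against day 1 sham went from 2 members to 0 under RLE scaling, DESeq2, at least 10 cells per plate (which left 1 IR day 1 plate), without wells over 100 other-class marker UMIs per 10000 and in the cluster of the MI wells (the latter pair added after seeing the data), to 1 under the replicate block, to 4 with classes by marker sums, and to 0 to 2 without single plates. In endothelial cells, IR day 1 against day 1 sham went from 2 to 1 under the replicate block (Cdh2 lost) and without wells over 100 cardiomyocyte marker UMIs per 10000 and to 3 under RLE scaling, DESeq2 and at least 10 cells per plate (1 to 3 without single plates, 1 without day 1 sham replicate 4), and MI against sham to 4 with no filter, 3 with at least 10 cells per plate or day 1 sham alone, and 1 without such wells (1 to 2 without single plates, 1 without day 14 sham replicate 1). Fibroblasts went from 1 to 0 without such wells, where fewer genes passed the filter, and macrophages from 0 to 3 with no filter. Where no construction shows it, the cause was not tested. The pooled folds without single plates were added after seeing the data.

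Of 1213 fold changes under the alternatives, 71 turned sign, 0 of them called, and 57 of these moved by no more than 1 SE. The other 14 were, in cardiomyocytes, Pkp2 in MI against sham (0.55 with at least 1 cell per plate), IR day 3 against sham under the replicate block (Gja1 -0.04, Pkp2 -0.12) and without wells over 10 other-class UMIs per 10000 (Cdh2 -0.59, Pkp2 -0.21), IR day 1 (Pkp2 -0.03 with no filter, Jup 0.15 with at least 1 cell, Cdh2 0.14 in the MI cluster), Pkp2 in MI against IR day 3 (0.39 with the block, 0.27 with at least 1 cell), and IR day 14 against IR day 3 with the block (Gja1 0.63, Pkp2 0.33). Endothelial Jup turned to 0.18 with the block in IR day 1 and to 0.03 with day 14 sham alone in MI.

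Replicate numbers did not pair plates: deviations of same-numbered cardiomyocyte plates correlated by -0.075 to 0.134 over 26 pairs, and by -0.205 to 0.11 in the other classes. Counts of all genes called that moved by over 1.5 times ranged, over all settings, from 538 to 1565 in MI against sham (main 1533), 53 to 411 in IR day 3 against sham (266), 1 to 18 in IR day 14 against day 14 sham (9), 27 to 733 in IR day 1 against day 1 sham (519), 199 to 1138 in MI against IR day 3 (1027), 8 to 214 in IR day 14 against IR day 3 (158), 4 to 44 between the sham groups (29) and 117 under RLE for the difference of IR effects (259), all in cardiomyocytes. In endothelial cells they ranged from 264 to 767 (653) at IR day 1 and 708 to 2098 (1314) in MI, in fibroblasts from 248 to 1366 (522) and in macrophages from 189 to 951 (436). MI cardiomyocytes could not be compared at 10 cells per plate, since no MI plate held that many. Fits of that class without MI replicate 2 or 3 held 1 MI plate, so they show little about the spread in MI. The 32 IR day 1 and 17 MI cardiomyocytes limit every statement on those groups.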
